A study of Mus musculus with 28 samples.

Results

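The 6 Iroquois homeobox genes of the mouse, Irx1 to Irx6, were examined for acetylation of histone H3 at lysine 27 (H3K27ac, which marks active promoters and enhancers) in cranial neural crest, a migratory cell population of the embryo that builds most of the facial skeleton. The genes form 2 clusters. Irx1, Irx2 and Irx4 lie on chromosome 13 and Irx3, Irx5 and Irx6 on chromosome 8. The members were all intervals of the deposited H3K27ac list that touched a cluster or the 200 kb on either side of it, which gave 205 of the 125826 intervals, 72 around Irx1-Irx2-Irx4 and 133 around Irx3-Irx5-Irx6. The list was called on the merged reads of 4 libraries from wild-type embryos at E10.5, 1 each from cells labelled as FNP, Mx, Md or PA2. Per the labels, cells were dissected, fixed with formaldehyde and collected by flow sorting. The marker that defined crest cells in that sort is not given in the sources used here. The other 24 of the 28 libraries of the series, among them the Ezh2cKO and HoxA2OE genotypes and the H3K27me3 and H3K4me2 libraries, were not analysed here. Because reads were merged before calling, no interval can be assigned to a population, no value has a replicate error and no difference below carries a test. Sequencing depth is unknown.

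Irx genes encode transcription factors with a homeodomain of the TALE class, which also includes the Meis and Pbx factors, and a short conserved Iro box. The clusters arose by duplication of an ancestral cluster of 3 genes, so that Irx1 pairs with Irx3, Irx2 with Irx5 and Irx4 with Irx6. Irx genes pattern the neural plate, heart, limb and retina, and mutations of human IRX5 cause Hamamy syndrome, in which the face and skull are malformed. Like many developmental homeobox genes, they are known targets of Polycomb repression in cells where they are silent.

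Promoter sequences show first how the genes differed. RefSeq promoters of GRCm38.p6 were matched for Irx2, Irx3 and Irx4, each with 250 bases before and 50 after the annotated start. These were the only Irx promoters that could be matched, and each was in a different state. Irx3 (chr8:91801605-91801904, minus strand) lay wholly under 1 interval. Irx2 (chr13:72628570-72628869, plus strand) lay mostly in a gap between a pair of intervals, with 55 of 300 bases covered. Irx4 (chr13:73260247-73260546, plus strand) had no interval. Capitals mark CpG dinucleotides.
Irx3: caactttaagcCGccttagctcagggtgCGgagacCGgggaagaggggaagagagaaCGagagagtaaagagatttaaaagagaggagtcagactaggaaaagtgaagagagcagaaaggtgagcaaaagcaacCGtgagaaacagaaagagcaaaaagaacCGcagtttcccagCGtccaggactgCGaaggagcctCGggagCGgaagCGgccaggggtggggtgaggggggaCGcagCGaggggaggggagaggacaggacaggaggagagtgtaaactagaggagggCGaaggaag
Irx2: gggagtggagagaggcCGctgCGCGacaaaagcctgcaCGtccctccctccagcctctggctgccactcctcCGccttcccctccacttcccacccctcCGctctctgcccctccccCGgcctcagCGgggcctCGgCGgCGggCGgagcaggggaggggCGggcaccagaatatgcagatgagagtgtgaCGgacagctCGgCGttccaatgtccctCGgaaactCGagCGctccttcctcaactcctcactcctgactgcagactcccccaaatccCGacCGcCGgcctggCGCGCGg
Irx4: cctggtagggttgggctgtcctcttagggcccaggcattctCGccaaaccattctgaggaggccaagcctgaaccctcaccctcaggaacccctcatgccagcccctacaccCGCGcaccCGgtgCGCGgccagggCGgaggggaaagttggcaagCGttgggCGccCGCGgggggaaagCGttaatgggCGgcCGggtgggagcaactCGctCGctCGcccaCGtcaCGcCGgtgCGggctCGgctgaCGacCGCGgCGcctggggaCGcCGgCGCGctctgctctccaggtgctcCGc
The promoter without acetylation was the richest in CpG of these 3. Irx4 had 31 CpG and a GC content of 70.7%, Irx2 had 25 and 69.0%, and Irx3 had 14 and 56.0%. Over all 32851 promoters of the same length the median was 7 CpG, with 18 among those with an interval within 1 kb of the start and 3 among those without one. Of the promoters without such an interval, 0.479% had at least as many CpG as Irx4. The motif GGGCGG, the binding letters of Sp and Klf factors, was found on either strand 2 times in Irx2, 2 times in Irx4 and 0 times in Irx3, and in 35.7% of all promoters. CCAAT, searched on both strands, occurred 1 time in Irx2 and not in the others (37.4% of all promoters). Neither TATAAA on either strand (13.6% of all promoters) nor the palindrome ACANNTGT that Iroquois proteins bind (7.38%) was found in the 3 promoters. The matches did not overlap one another.

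At gene starts, 5 of the 6 Irx genes carried an interval, and Irx4 did not. A gene counted as marked if the 1 kb on either side of its start as listed by RefSeq held an interval. Both annotated gene ends were used where no start was matched, as for Irx1, Irx5 and Irx6. By the same rule 65.5% of 21883 protein-coding genes were marked, so that a count of 5 of 6 is near the background. By gene ends alone 4 of 6 Irx genes and 65.0% of protein-coding genes were marked. Scores, the authors' peak values, which by MACS2 convention grow as the q-value falls, were moderate. They were 1673 at Irx5, 1624 at Irx3, 1062 at Irx2, 781 at Irx1 and 283 at Irx6. The median over marked protein-coding genes was 2612, with quartiles of 825 and 4875. All 5 marked Irx genes thus lay below that median, and 62.2% of marked genes scored at least as high as Irx5, 63.1% as Irx3, 71.0% as Irx2, 75.7% as Irx1 and 86.3% as Irx6. Neighbours in this order cannot be separated, since no value has an error.

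**Figure D1:**
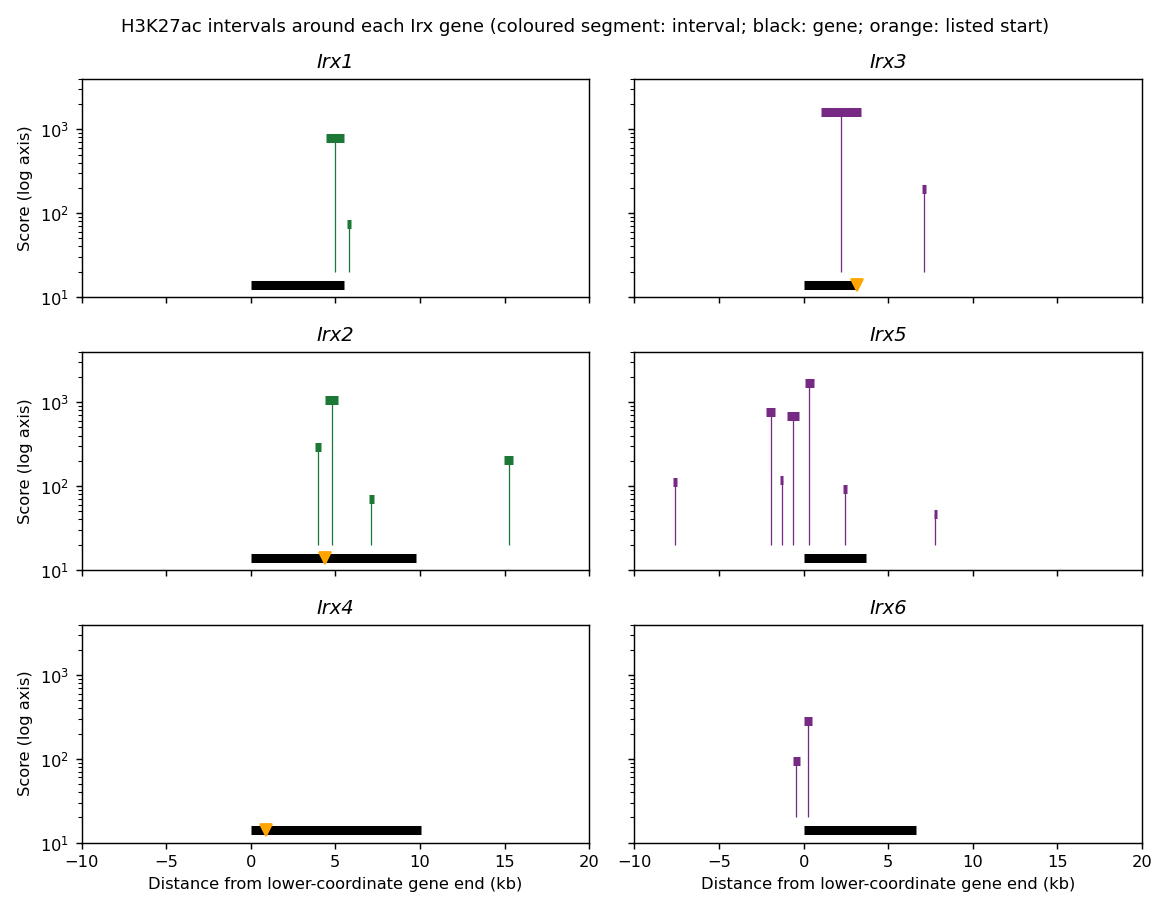
H3K27ac intervals from 10 kb before to 20 kb after the lower-coordinate end of each Irx gene, with paralogue pairs side by side. The x axis is distance in kb, the y axis the score on a log scale. Coloured segments are intervals drawn at their score and to their width, on thin stems, the black bar is the annotated gene and the orange triangle the listed start. Irx3 has 1 broad interval, Irx5 has 4 at or just before its end, and Irx4 has none in view.

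Irx3, which acts in limb, heart and hypothalamic development, had the widest single interval of both windows. The length covered within 10 kb was similar at Irx3 and Irx5, at 2.61 and 2.56 kb. The interval at Irx3 had 2387 bp and a score of 1624 and ran from 91799524 to 91801910 on chromosome 8. It covered 67.8% of the gene (91798511 to 91801654) and extended 256 bases past the listed start. Only 13 of the 125826 intervals of the list, this one included, were as wide, and the widest had 3351 bp. The nearest other intervals lay 3.85 kb above the gene, with a score of 193 inside the annotated span of the long non-coding gene Irx3os, and 20.9 kb below it, with a score of 82. Irx3 therefore had 2 intervals within 10 kb, against a median of 3 for protein-coding genes, and 21 within 100 kb, against a median of 15. Such counts span the gene itself and the stated distance on either side, so longer genes have longer windows. Irx3 has 3144 bp, and the medians and shares over protein-coding genes here and below were not matched on gene length.

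Irx5, the Irx gene of Hamamy syndrome and a regulator of cardiac repolarisation, had the most intervals close by. Chromosome 8 carried 4 of them between 92355591 and 92358409, spanning 2819 bp with gaps of under 1 kb. From lower to higher coordinates their scores were 767, 117, 691 and 1673 and their widths 509, 181, 724 and 534 bp. The first lay at the end of Crnde, a long non-coding gene whose listed start faces Irx5, and the last lay inside Irx5 (92357796 to 92361456), starting 80 bases from its lower end. A further interval inside the gene scored 92. Within 10 kb of Irx5 there were 7 intervals, and 18.1% of protein-coding genes had as many.

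Irx6, which is known from bipolar cells of the retina, had the weakest mark among the 5. An interval of 520 bp with a score of 283 began 2 bases inside its lower end at 92674289, and 1 of 394 bp with a score of 94 ended 231 bases before it. No interval lay in the rest of the gene, and the next was 42.1 kb above it. That stretch of 48.2 kb was the longest without acetylation in the Irx3-Irx5-Irx6 window.

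Irx1 (71958232 to 71963723 on chromosome 13) carried an interval of 1038 bp with a score of 781 that ended 2 bases inside its upper end, followed 210 bases after that end by 1 of 241 bp with a score of 75. Below the gene the nearest interval was 43.4 kb away. Irx2 (72624430 to 72634196) had 3 intervals, of 386, 738 and 297 bp with scores of 295, 1062 and 69. The first pair flanked its listed start at 72628820, which lies inside the annotated span, and the lncRNA gene Gm20554, on the other strand, starts close by. At the outer annotated ends of Irx2 there was no interval within 1 kb, so that it is marked by its listed start only. The Irx1 and Irx2 marks were thus compact, with 2 and 4 intervals within 10 kb.

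Irx4, known for its expression in the ventricles of the heart, had no interval inside the gene (73259589 to 73269622) or within 10 kb of it. The nearest lay 20.0 kb below with a score of 94 and 21.6 kb above with a score of 88. Its 13 intervals within 100 kb included those at the housekeeping genes Ndufs6, of respiratory complex I, and Mrpl36, of the mitochondrial ribosome. Only 3 lay within 50 kb, against a median of 8 for protein-coding genes of all lengths. With depth unknown, this shows that acetylation at Irx4 was not detected in the merged reads, not that it was absent.

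A feature shared by 4 of the 5 marked genes was a short gap in acetylation over the start or end base. At Irx1, Irx2, Irx5 and Irx6 this base lay between a pair of intervals, in gaps of 211, 245, 344 and 232 bp. In each, 1 flank had the higher score, at 781 against 75, 1062 against 295, 1673 against 691 and 283 against 94. At Irx1, Irx5 and Irx6 the stronger interval lay inside the annotated gene and the weaker outside it. At Irx2 both lay inside the annotated span, with the stronger downstream of the listed start. Over marked protein-coding genes, 24.2% had such a base between intervals within 1 kb on both sides, 24.4% of those with a listed start and 23.5% of those scored by their ends. At Irx3 the listed start was covered. Such a base was covered at 8889 of the 14337 marked protein-coding genes, which is 40.6% of all 21883 protein-coding genes, marked or not.

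The Irx3-Irx5-Irx6 member had the higher start score in each of the 3 paralogue pairs. Irx3 had 1624 against 781 at Irx1, Irx5 had 1673 against 1062 at Irx2, and Irx6 had 283 where Irx4 had no interval. The counts of intervals within 50 kb pointed the same way, with 11 against 5, 10 against 6 and 9 against 3. As many within 50 kb were found at 38.5% of protein-coding genes for Irx3, 44.1% for Irx5 and 49.7% for Irx6, and at 71.3% for Irx1, 66.6% for Irx2 and 79.7% for Irx4. Within 100 kb they were 21 against 6, 16 against 11 and 17 against 13. The order did not hold for every measure. Within 10 kb Irx3 and Irx1 had 2 intervals each, with 7 against 4 and 2 against 0 in the other pairs. The length covered within 100 kb was 8.10 against 2.28 kb and 5.74 against 3.59 kb in the first pairs, but 5.45 kb at Irx6 against 5.62 kb at Irx4. With 1 merged list this order has no error, and genes of a cluster share intervals and are not independent.

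**Figure D2:**
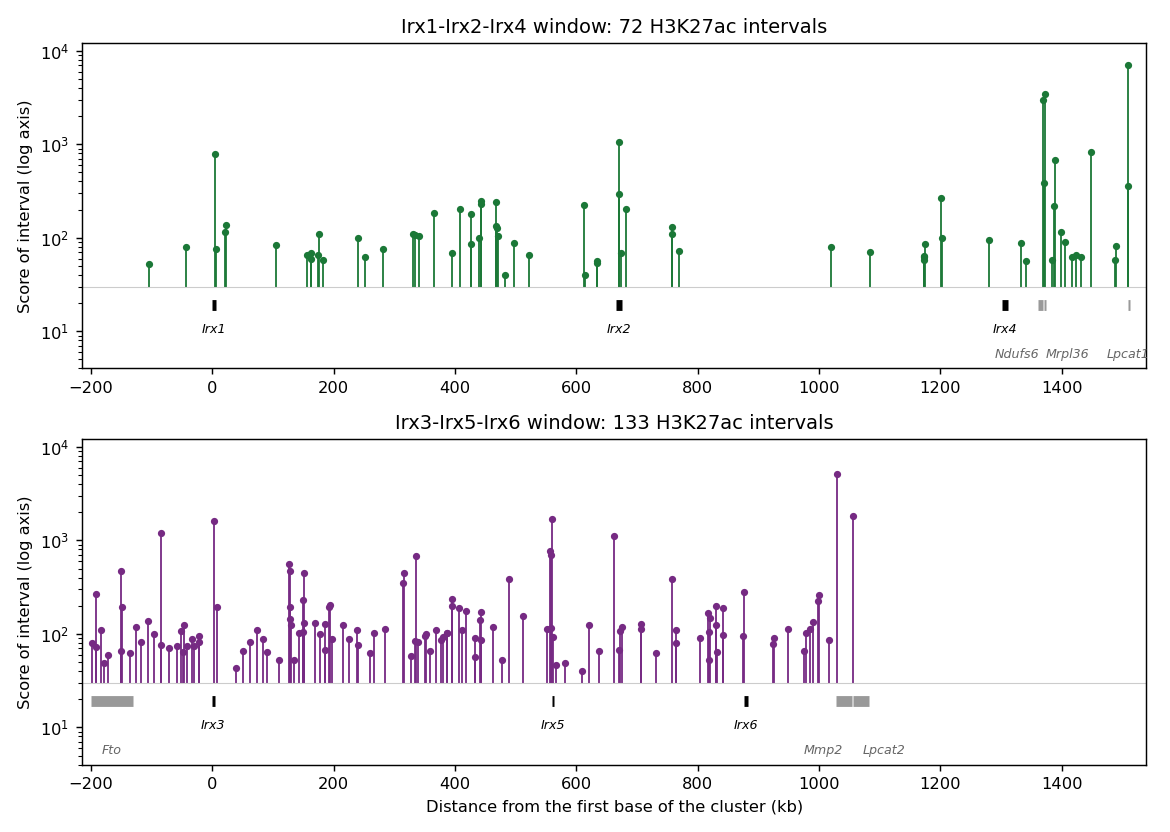
Position and score of every H3K27ac interval in the Irx windows. The x axis is distance in kb from the first base of each cluster, the y axis the score on a log scale. Each stem is 1 interval, black bars are Irx genes and grey bars other protein-coding genes, drawn only as far as they lie in the window. The Irx3-Irx5-Irx6 window is filled throughout, while the Irx1-Irx2-Irx4 window has long empty stretches, and the highest scores in both belong to other genes near the right edge.

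The clusters differed more in the number of intervals than in their strength. The Irx3-Irx5-Irx6 window (chromosome 8, 91598511 to 92880956, 1282 kb) held 10.4 intervals per 100 kb, and the Irx1-Irx2-Irx4 window (chromosome 13, 71758232 to 73469622, 1711 kb) held 4.21, a ratio of 2.47. Intervals covered 3.66% and 1.38% of the windows. Median scores were 108 (quartiles 79 and 170) and 92 (quartiles 65 and 189), and median widths 251 and 233 bp, against 111 and 271 bp for the whole list. The ratio of the median scores was 1.17. A score of 100 or more was held by 74 (55.6%) and 33 (45.8%) intervals, against 56.1% of the list. Widths of at least 500 bp were held by 25 (18.8%) and 14 (19.4%). In the whole list 22.9% of intervals were at least 502 bp wide. Chromosomes 8 and 13 as wholes had similar densities of 5.15 and 5.31 per 100 kb.

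Against tiles of the same length over chromosomes 1 to 19 and X, the Irx3-Irx5-Irx6 window was dense and the other was ordinary. At least as many intervals were found in 6.17% of 2041 tiles for Irx3-Irx5-Irx6 and in 54.3% of 1527 tiles for Irx1-Irx2-Irx4. The tile medians were 4.68 and 4.62 intervals per 100 kb. By covered share, 11.9% and 58.6% of tiles reached the value of the window. With scores of at least 100 only, 9.46% and 59.3% of tiles had as many. Tiles were not matched on gene content.

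**Figure D3:**
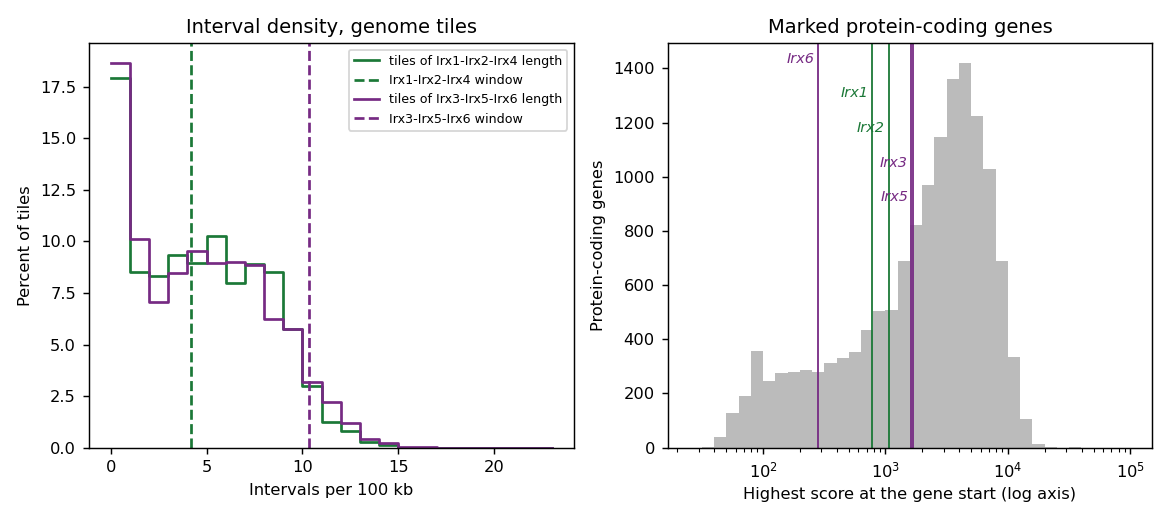
Left, percent of genome tiles (y axis) by intervals per 100 kb (x axis), for tiles as long as each Irx window, with dashed lines at the windows, 4.21 for Irx1-Irx2-Irx4 and 10.4 for Irx3-Irx5-Irx6. Right, number of marked protein-coding genes (y axis) by the highest score at the gene start (x axis, log scale), with lines at the 5 marked Irx genes, all below the median of 2612.

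Within each cluster the intervals were unevenly spread. Between Irx3 and Irx5, 556 kb held 65 intervals, or 11.7 per 100 kb, with a median score of 111, and between Irx5 and Irx6, 313 kb held 26, or 8.31 per 100 kb, with a median of 106.5. On chromosome 13, Irx1 and Irx2 were separated by 661 kb with 35 intervals, or 5.30 per 100 kb, and Irx2 and Irx4 by 625 kb with 13, or 2.08 per 100 kb. Density between genes thus fell from the Irx3 to the Irx6 side and from the Irx1 to the Irx4 side. The 13 intervals between Irx2 and Irx4 had scores of 58 to 265. The longest empty stretch, 251 kb from 72727626 to 72978678, lay there. Assigned to the nearest Irx gene, 59 intervals belonged to Irx3, 46 to Irx5 and 28 to Irx6, and 18 to Irx1, 27 to Irx2 and 27 to Irx4. In the Irx1-Irx2-Irx4 window 11 gaps exceeded 50 kb, and in the other window none did. How often such gaps occur over the genome was not computed, so they cannot be called particular to this cluster.

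**Figure D4:**
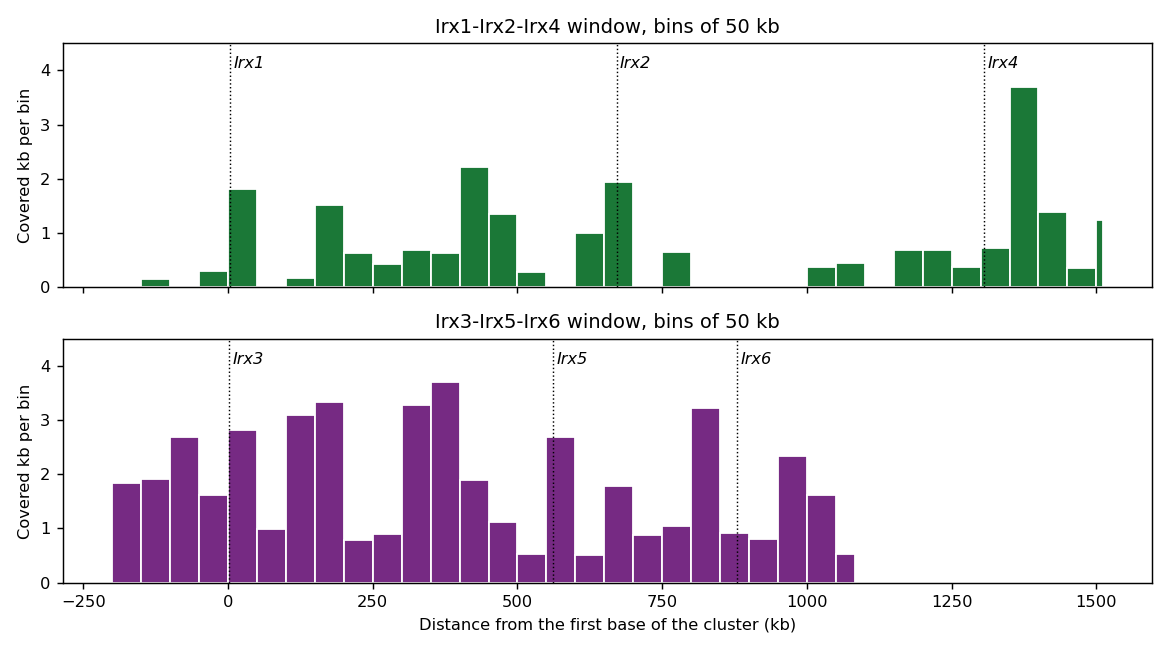
Length covered by H3K27ac intervals in bins of 50 kb (y axis, kb per bin) along each window (x axis, kb from the first base of the cluster), with dotted lines at the Irx genes. The last bin of each window is shorter. Of the full bins, 10 of 34 are empty in the Irx1-Irx2-Irx4 window and 0 of 25 in the Irx3-Irx5-Irx6 window. The share of empty bins over the genome was not computed.

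The flanks also differed. The 200 kb before Irx3 held 26 intervals with a median score of 82, of which 10 lay in the annotated span of Fto. Introns of Fto are known to hold distant enhancers of Irx3. However, only 69.9 kb of the 355 kb of Fto lay in the window, with 10 of its 55 intervals. Whether these 10 are such enhancers was not tested. The strongest of these 10 scored 470 (91648537 to 91648982), and the median was 75.5. The strongest interval on this side had a score of 1193 and a width of 1535 bp and lay at the start of the lncRNA gene Gm36325, 84.2 kb from Irx3 (91712745 to 91714279). The 200 kb before Irx1 held 2 intervals with scores of 52 and 80. After Irx4 there were 18 and after Irx6 12, and these flanks held the highest scores of both windows. They were 6984 at Lpcat1, an enzyme of phospholipid synthesis, 3444 at Mrpl36 and 2990 at the adjoining ends of Ndufs6 and Mrpl36, and on the other side 5103 at Mmp2, a gelatinase gene of mesenchyme, and 1834 at Lpcat2. Each exceeded every Irx start score.

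Long non-coding genes in the windows were counted as well. An interval lay within 1 kb of an end of 8 of 11 lncRNA genes around Irx3-Irx5-Irx6 and 3 of 10 around Irx1-Irx2-Irx4, against 41.5% of all lncRNA genes. Some of these intervals were shared with protein-coding genes. The interval scoring 1062 at Irx2 was also counted for Gm20554, and that scoring 1834 at Lpcat2 for Gm45472. Crnde shared an interval scoring 691 with Irx5. Crnde had the highest such score between the Irx genes of chromosome 8, at 767, and Irx3os had 111.

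Most intervals of both windows were distal, with no annotated gene end of any kind within 1 kb. These were 115 of 133 (86.5%) around Irx3-Irx5-Irx6 and 58 of 72 (80.6%) around Irx1-Irx2-Irx4, against 77.5% of all intervals. Their median scores were 103 and 86.5, and 98 for all such intervals. Scores of at least 400 were reached by 7 of 115 (6.09%) and 1 of 58 (1.72%), against 8.00% of such intervals in the list. The first share was near that of the list, and the second rests on 1 interval. The strongest had a score of 1113 and a width of 872 bp and lay 98.9 kb above Irx5, between Irx5 and Irx6 (92460308 to 92461179). Between Irx3 and Irx5 the strongest scored 681 (92133863 to 92134418) and 556 (91925645 to 91926202). On chromosome 13 the strongest distal interval scored 832 (73405961 to 73406571) and lay 136 kb above Irx4, beyond Ndufs6 and Mrpl36. The next, with scores of 265 and 248, lay between Irx2 and Irx4 and between Irx1 and Irx2.

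Some intervals formed tight runs. All intervals, distal or not, were joined across gaps of at most 1 kb. This left 98 regions around Irx3-Irx5-Irx6 and 52 around Irx1-Irx2-Irx4, single intervals included. Of these, 7 and 2 were runs of 3 or more intervals. The share of such runs over the whole list was not computed. The 7 include the run at Irx5. Away from it, the largest had 5 intervals over 2476 bp (91925645 to 91928120), 4 over 2412 bp (91947696 to 91950107) and 4 over 2530 bp (92616247 to 92618776), with top scores of 556, 448 and 167. The first of these lay 124 kb above Irx3 and the last between Irx5 and Irx6. The interval from 92113947 to 92115825, between Irx3 and Irx5, was a single one of 1879 bp with a score of 446, and 229 intervals of the list were as wide. On chromosome 13 the runs had top scores of 242 and 85, and the latter had 3 of its 4 intervals within 1 kb of an end of the lncRNA gene Gm30154.

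Start scores of the Irx genes were set beside those of genes of related function. All 12 other TALE homeobox genes examined were marked, with scores from 782 at Mkx, the Irx-like Mohawk gene of tendon, to 5403 at Pbx3 and a median of 2552, whereas the median over the 6 Irx genes, with Irx4 at 0, was 921.5. Irx3 and Irx5 scored above Mkx, Pbx4 (972), Meis3 (1031) and Meis2 (1336), and below the other 8. The median number of intervals within 50 kb was 21.5 for these genes and 7.5 for Irx, without matching on gene length. Of 6 genes linked to Irx function, 5 were marked, and the median over all 6 was 994.5, close to that of Irx. They were Gli3, the Hedgehog effector that acts with Irx3 and Irx5 in the limb, with 4860, Trps1 with 2389 and Gata3 with 188, whose proteins bind IRX5, Cxcl12, a chemokine gene that IRX5 represses, with 1441, and Kcnd2, the potassium channel gene that Irx5 represses in heart, with 548. Slit1, an axon guidance gene controlled by Irx4 in the retina, was not marked.

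The labelled cell type was checked against marker genes. The counts are to be read against the 65.5% of all protein-coding genes that were marked. Of 8 crest mesenchyme genes 7 were marked, with scores from 1380 at Msx1 to 4697 at Prrx2. Tfap2b had no interval at its listed starts, but an interval scoring 660 lay within 1 kb of an annotated end of the gene. Of the markers of other cells in which Irx genes can be active, 4 of 8 epithelial genes (207 to 1367, highest at Grhl2), 4 of 8 neural genes (94 to 279) and 2 of 6 heart muscle genes (105 and 134) were marked, and Cdh1, Pax6, Nkx2-5 and Myl7 were not. Endothelial genes were marked in 6 of 6 (98 to 435), blood genes in 2 of 6 (1480 and 1492) and head muscle genes in 4 of 6 (84 to 368). The start scores of Irx1, Irx2, Irx3 and Irx5 were above all neural, endothelial, head muscle and heart muscle markers, while that of Irx6 was within the range of the endothelial, head muscle and epithelial markers. All 7 marked crest genes scored above Irx1, Irx2 and Irx6. Among these crest genes, only Msx1, Dlx5 (1407) and Pdgfra (1451) scored below Irx3 and Irx5. The epithelial gene Grhl2 and the blood genes Klf1 and Spi1 scored above Irx1 and Irx2 and below Irx3 and Irx5. The part of such cells in the Irx intervals was not tested.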

How the data were processed

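H3K27ac chromatin immunoprecipitation sequencing of 4 wild-type E10.5 libraries was analysed. Per the text deposited with the list, their reads were merged and intervals called once with MACS2 2.1.3.3, without model building. Reads were extended to 141 bp, all duplicates were kept, and no control is mentioned, so piled-up reads at repeats can enter the list. Per the submitters' processing notes, Bowtie 1.1.1, bcl2fastq 2.17 and the build GRCm38 were used. The deposited score of each interval is the authors' value (by MACS2 convention 10 times −log10 of the q-value, the lowest here being 31) and served only to describe intervals within this list. Depth is unknown.

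Windows ran from 200 kb before to 200 kb after each cluster. An interval touching a window by 1 bp was counted. Gene spans and starts came from RefSeq tables of GRCm38.p6, which gave a start for 17491 of 21883 protein-coding genes. Overlap counts were computed with pandas 2.3.3 and numpy 2.4.6 and tested on simulated intervals. Named genes were the 6 members, genes in the windows and the highest and lowest of each list. Other list members, and the joined runs and distal intervals beyond the 3 highest, were named after their values were seen. The members and lists were chosen with earlier results of these data known. Alternatives were score minimums, flanks of 100 and 0 kb, whole containment, joining across 1 kb, other start windows and removal of intervals at other genes.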

Additional observations from a re-analysis of the deposited data

How the results depend on the processing

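The higher density around Irx3-Irx5-Irx6 kept its direction in all 7 alternatives, with ratios from 2.47 to 3.03. The 7th, removal of the 7 intervals at ends of other protein-coding genes, was chosen after seeing the data. With scores of at least 100, densities were 1.93 intervals per 100 kb for Irx1-Irx2-Irx4 and 5.77 for Irx3-Irx5-Irx6 and covered shares 0.858% and 2.70%. With scores above the list median of 111 they were 1.52 and 4.60, and 0.749% and 2.34%. The covered share of the Irx1-Irx2-Irx4 window was 1.20% with a flank of 0 kb and 1.19% without other genes' intervals, and that of the Irx3-Irx5-Irx6 window was 3.62% with a flank of 100 kb, 3.80% with 0 kb and 3.50% without other genes' intervals. The count of 5 marked Irx genes became 1 when an interval had to cover the start base itself, where only Irx3 was left and 40.6% of protein-coding genes were marked. It was 4 by either gene end, without Irx2, and 5 in the other 5 alternatives. No paired analysis was possible because reads of the 4 libraries were merged before calling.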
